A study of Homo sapiens with 13 samples.

Results

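miR-17-5p pull-downs were set against pull-downs of 3 unrelated miRNA duplexes, to find out which mRNAs were captured more, or less, with miR-17-5p than with miRNAs of other sequence. Cells of the human embryonic kidney line HEK293T had been transfected with 200 pmol of a duplex whose mature strand carried biotin, harvested after 24 h and passed over streptavidin beads, and the captured mRNA was hybridized to Illumina HT-12 bead arrays. The comparison takes 10 of the 13 libraries of the series: 3 of miR-17-5p, 2 of miR-23b, 3 of miR-27a and 2 of miR-182-iso, a miR-182 duplex with a shifted 5′ end. The 3 libraries of miR-17-5p-iso, a variant of miR-17-5p itself, were left out of the comparator by design. No mock-transfected library is among these samples, and the level of each mRNA in the input RNA was not analysed here. A value is therefore the amount of an mRNA in one pull-down relative to another, and a low value with miR-17-5p cannot be told apart from a high one with the other duplexes. All groups share the cell line, the dose and the time, and the labels do not say whether replicates came from separate cultures. The spread behind each p-value and SE is that between libraries of the same duplex, and may be technical. It does not include how far the 3 unrelated duplexes differ from each other.

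miRNAs guide Argonaute proteins, the core of the RNA-induced silencing complex (RISC), to mRNAs. Pairing of the seed, the bases just behind the 5′ end of the miRNA, to the 3′UTR is the best known route, and pairing through the central bases, at centered sites, is a less common one. miR-17-5p comes from a cluster of miRNAs in an oncogenic locus that is highly active in dividing cells, and its known targets include inhibitors of the cell cycle and receptors of the TGFβ pathway. A biotin-tagged strand loaded into RISC can carry the mRNAs it has bound onto the beads.

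The strands that carried biotin are shown because the comparison rests on how they differ; capitals mark the seed, positions 2 to 8 from the 5′ end.
miR-17-5p: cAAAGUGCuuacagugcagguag
miR-23b: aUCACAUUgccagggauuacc
miR-27a: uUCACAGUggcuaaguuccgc
miR-182-iso: uGGCAAUGguagaacucacacu
miR-17-5p-iso: uCAAAGUGcuuacagugcaggua
The miR-17-5p strand was identical to the RefSeq mature miRNA, which lies at chr13:91350618-91350640 on the plus strand (GRCh38.p14). The miR-23b strand (MIR23B, chr9:95085265-95085287, plus strand) held the first 21 of 23 bases of its mature form. The miR-27a strand equalled its mature form (MIR27A, chr19:13836447-13836467, minus strand). The miR-182-iso strand started 2 bases downstream of mature miR-182-5p (MIR182, chr7:129770447-129770470, minus strand). miR-17-5p shared a run of at most 6 identical bases with miR-27a, 5 with miR-182-iso and 4 with miR-23b, and none of the 3 unrelated seeds occurred in it. By contrast, miR-17-5p-iso began 1 base upstream and shared 22 bases with miR-17-5p.

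Signals were the authors' normalized values, on a variance-stabilized scale that approaches log2 as probes get brighter and narrows at low signal, where a difference comes out too small. They ran between 7.42 and 15.5, with library medians of 8.53 to 8.60. The table holds 12007 probes for 8380 named genes, and a gene is described by its brightest probe. Pearson correlations over all probes were 0.941 to 0.967 among the miR-17-5p libraries and 0.870 to 0.947 between these and the 7 comparator libraries. Of 8 HEK293T markers, 5 had a probe in the table, and VIM and CDH2 were bright (up to 13.1 and 13.3). Of 8 markers of other cell types, COL1A1 alone had a probe, at 7.48 to 7.59, near the bottom of the scale.

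At an adjusted p under 0.05 (limma, Benjamini-Hochberg over all probes), 641 probes were higher with miR-17-5p than with the mean of the 3 unrelated duplexes, 5.34% of those tested, and 542 were lower (4.51%). In genes, 487 were higher (5.81%) and 411 were lower (4.9%). The higher genes had the larger differences. Their median was 0.76 and the largest was 2.83, and 133 of the 487 exceeded 1, whereas the median of the lower genes was -0.61, the lowest value was -1.52 and 31 of the 411 were beyond -1. The median over all genes was -0.02. The 3 miR-17-5p libraries lay above all 7 comparator libraries in 248 of the 487 higher genes, against 308 of all genes (3.68%), and below them in 113 of the 411 lower genes, against 151 of all genes (1.8%).

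**Figure D1:**
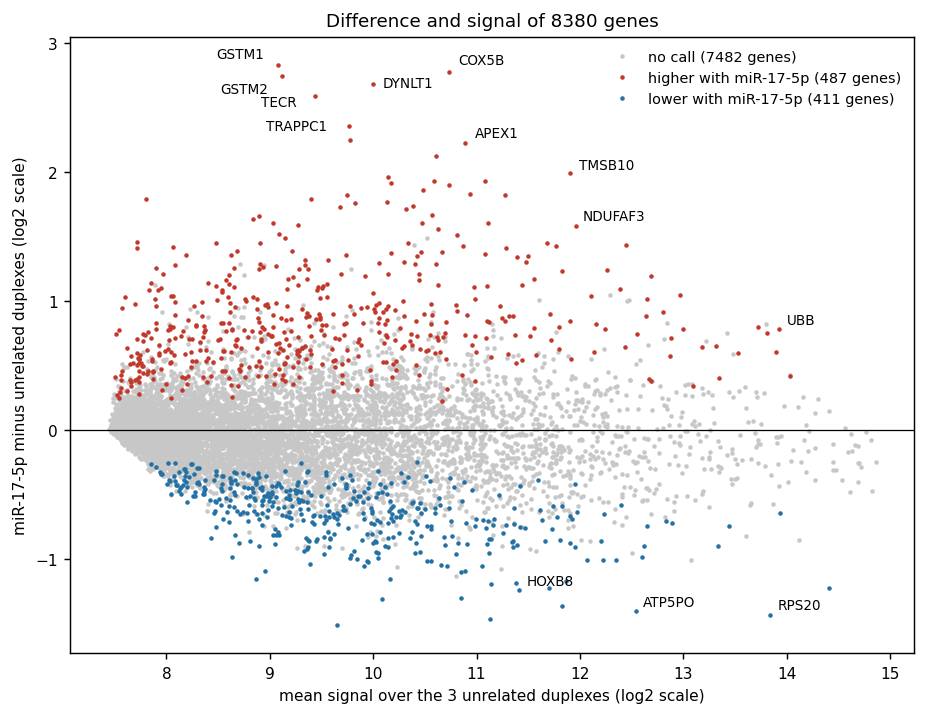
Each point is a gene. The horizontal axis is its mean signal over miR-23b, miR-27a and miR-182-iso with equal weight, and the vertical axis is miR-17-5p minus that mean, both on the log2 scale; 487 genes were higher (red) and 411 lower (blue). The positive differences reach 2.83 (GSTM1) and the negative ones -1.52.

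The libraries did not weigh equally in these counts. miR-17-5p replicate 2 was the library nearest to the comparators in 327 of the 487 higher genes (67.1%) and 243 of the 411 lower genes (59.1%). Without it, 871 probes were higher and 712 lower. Without replicate 3 there were 292 and 180, without replicate 1 there were 453 and 347, without miR-23b replicate 1 there were 422 and 295, without miR-23b replicate 2 there were 437 and 341, and without miR-182-iso replicate 1 there were 454 and 348. A comparator that left out miR-182-iso altogether gave 1061 and 1169.

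A stricter reading asks for a difference from each of the unrelated duplexes on its own. Of the 8380 genes, 116 were higher with miR-17-5p than with each of the 3 (1.38%, 156 probes), and 25 were lower than with each (0.298%, 31 probes). Among the called genes, miR-17-5p was the highest of the 4 groups in 440 of the 487 called higher, and the lowest in 304 of the 411 called lower. The calls were made on the same group means, so these ranks are partly fixed and only describe the calls. The share over all genes was not counted. In the higher genes the group farthest below was most often miR-27a, in 254, followed by miR-182-iso in 120 and miR-23b in 113. In the lower genes the group farthest above was miR-23b in 167, miR-182-iso in 156 and miR-27a in 88. The probe counts of this reading fell to between 44 and 80 higher and 9 and 18 lower when miR-17-5p replicate 3, either miR-23b library or either miR-182-iso library was left out, and were 280 and 64 without miR-17-5p replicate 2.

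Glutathione S-transferases of the mu class, which conjugate glutathione to reactive compounds, headed the captured mRNAs. GSTM1 signals were 12.01, 11.48 and 12.24 in the miR-17-5p libraries, against 9.08 and 9.07 with miR-23b, 8.88, 8.62 and 8.52 with miR-27a, and 9.42 and 9.55 with miR-182-iso. The lowest miR-17-5p library thus lay well above the highest of the others, and the difference was 2.83 ± 0.16 (SE, adjusted p = 6.1e-05 by limma). GSTM2 had 11.99, 11.30 and 12.30 with miR-17-5p, against a lowest value of 8.58, a median of 9.04 and a highest of 9.53 over the 7 comparator libraries, a difference of 2.75 ± 0.19 (adjusted p = 0.00014). A second, dimmer GSTM2 probe was also higher, by 1.03. The sequences of these paralogs are so alike that a probe for one can bind the mRNA of the other, and their signals cannot be counted as separate captures. Of the 21 measured genes of glutathione metabolism, 6 were higher (28.6%) and 2 lower (9.52%), with a median of 0.05. Over all genes these shares were 5.81% and 4.9%. The other higher members were MGST1 (0.84), a membrane-bound transferase, GLRX5 (0.78) and GLRX (0.70), which are glutaredoxins, and GCLM (0.74), the modifier subunit of the enzyme that starts glutathione synthesis; GLRX2 (-0.55) and GSTA4 (-0.53) were the lower ones. The 6 became 3 without miR-17-5p replicate 3 or miR-23b replicate 2, and the lower calls became 4 without miR-17-5p replicate 2 and 0 without either of the other miR-17-5p libraries, either miR-23b library, either miR-182-iso library or miR-27a replicate 1; without miR-27a replicate 3 or any single miR-17-5p-iso library, which share the estimate of spread, there was 1.

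DYNLT1, a light chain of the motor dynein, stood clear of every unrelated duplex. Its signals were 12.72, 12.35 and 12.99 with miR-17-5p, against 10.01 and 9.90 with miR-23b, 9.71, 10.04 and 9.95 with miR-27a, and 10.10 and 10.19 with miR-182-iso. The 7 comparator libraries lay close together, between 9.71 and 10.19, and the difference was 2.69 ± 0.21 (SE, adjusted p = 0.00029). It exceeded miR-23b by 2.73, miR-27a by 2.78 and miR-182-iso by 2.54, and the last of these was the largest minimum over the 3 comparisons of any gene higher in all of them.

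Subunits of cytochrome c oxidase, the last complex of the respiratory chain, were the list with the most higher members for its size. Of 10 measured nuclear-encoded subunits, 6 were higher (60.0%, against 5.81% of all genes) and none was lower, with a median of 0.47. COX5B had 13.58, 12.47 and 14.48 with miR-17-5p, against a lowest value of 9.84, a median of 10.64 and a highest of 11.62 in the comparator libraries, a difference of 2.78 ± 0.37 (adjusted p = 0.0021). The miR-17-5p libraries differed among themselves by up to 2 units (SD 1.01), yet none reached down to the comparators. COX6B1 had 13.19, 11.88 and 13.12, against 9.18, 10.46 and 11.42 as the lowest, median and highest, a difference of 2.12 ± 0.31 (adjusted p = 0.0035). Against miR-182-iso alone COX6B1 (1.33, adjusted p = 0.056), COX7B (0.64, adjusted p = 0.19) and COX4I1 (0.30, adjusted p = 0.10) missed the threshold. Just 1 of the 10 subunits, COX5B, was higher than with each of the 3 unrelated duplexes. COX7B (1.00), COX4I1 (0.91), COX6A1 (0.53) and COX5A (0.40) made up the 6, while COX7C (0.03), COX6C (0.03), COX7A2 (-0.12) and COX8A (-0.13) had differences near 0. Without miR-17-5p replicate 1, 3 of the 10 passed the threshold, and over the other libraries left out singly it was 4 to 6. COX7B lost its call without any single miR-17-5p or miR-182-iso library or miR-23b replicate 1, COX6A1 without miR-17-5p replicate 1, and COX5A without miR-17-5p replicate 1 or 3, miR-23b replicate 2 or miR-182-iso replicate 1; with miR-23b dropped from the comparator COX5A was at -0.017.

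**Figure D2:**
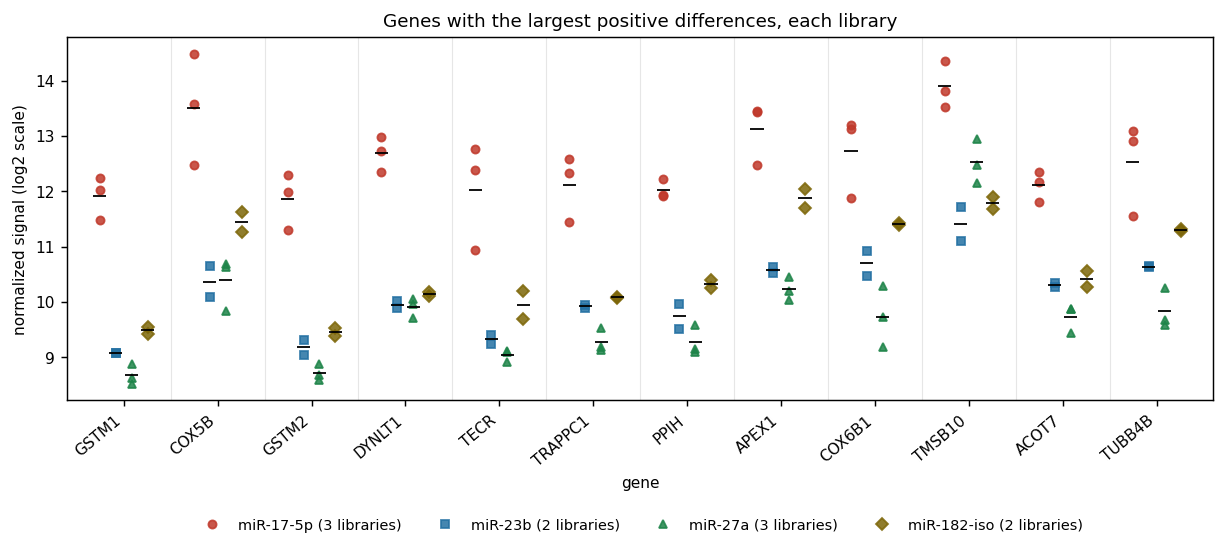
Signal on the log2 scale of the 12 genes with the largest positive differences among called genes whose libraries do not overlap. For each gene the 3 miR-17-5p libraries (red circles) stand left of the 2 miR-23b, 3 miR-27a and 2 miR-182-iso libraries, and bars are group means. Every miR-17-5p point lies above all 7 comparator points of its gene, by most in GSTM1, GSTM2 and DYNLT1.

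The other respiratory lists had medians nearer to 0. Over all genes 5.81% were higher and 4.9% lower. Of the 27 measured subunits of complex I, which takes electrons from NADH, 3 were higher (11.1%) and 1 lower (3.7%), with a median of 0.01. NDUFA11 (1.67), NDUFB11 (1.30) and NDUFA3 (0.93) were the higher ones, and NDUFB2 (-0.86) was lower. In complexes II and III, 2 of 11 were higher (18.2%), UQCRQ (1.43) and SDHA (0.62), and none was lower, with a median of 0.06. ATP synthase split, with 3 of 16 higher (18.8%) and 2 lower (12.5%) around a median of 0.08. ATP5MC2 (0.88), ATP5MJ (0.73) and ATP5MC3 (0.49) were the higher ones. ATP5PO, the subunit that links the stator to the catalytic head, had the most negative difference of the respiratory subunits measured. It was at 11.13 ± 0.09 with miR-17-5p (SD, n = 3), against 12.54 as the mean of the comparators, a difference of -1.41 ± 0.26 (adjusted p = 0.0091), although its libraries overlapped. This difference did not hold against miR-23b, where ATP5PO was at 0.10 (adjusted p = 0.88), and came from miR-27a (-2.03) and miR-182-iso (-2.30). Calls ended without miR-17-5p replicate 1 or 3 for NDUFA3, without miR-17-5p replicate 3 for SDHA, and for ATP5MC3 without any single library except miR-17-5p replicate 1, miR-27a replicate 2 and replicate 2 or 3 of miR-17-5p-iso. ATP5IF1, the inhibitor of the enzyme, was at -0.83, but its second, dimmer probe was at 0.30 and not called.

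Mitochondrial ribosomal proteins, which build the ribosome for mitochondrially encoded mRNAs, were called in both directions. Of 76 measured, 15 were higher (19.7%) and 4 lower (5.26%), while the median was -0.01. Over all genes these shares were 5.81% and 4.9%. MRPL36, a protein of the large subunit, had 12.77, 11.56 and 11.91 with miR-17-5p, against 9.81, 10.13 and 10.49 as the lowest, median and highest comparator values, a difference of 1.92 ± 0.22 (adjusted p = 0.0012). MRPL51 (1.12), MRPS2 (1.12) and MRPL55 (1.10) followed, and a second MRPL55 probe gave 1.11. MRPL14 (-0.80), MRPL12 (-0.72), MRPL41 (-0.71) and MRPL17 (-0.67) were the lower ones; with miR-182-iso dropped from the comparator MRPL14 was at 0.085. Leaving out single libraries changed the 15 to 7 without miR-17-5p replicate 3, to 8 without miR-17-5p replicate 1 or either miR-23b library, and to 9 without miR-182-iso replicate 1. The 4 became 1 without miR-17-5p replicate 1, 2 without miR-17-5p replicate 3, miR-23b replicate 1 or miR-182-iso replicate 1, and 10 without miR-17-5p replicate 2. Cytosolic ribosomal proteins stood near the background, with 3 of 69 higher (4.35%) and 1 lower (1.45%) and a median of -0.01: RPL10A (0.71), RPL3 (0.65) and RPS29 (0.42) were the higher ones, all 3 of them lost without miR-17-5p replicate 3, and RPL10A and RPL3 also without miR-17-5p replicate 2 or any library of miR-23b or miR-182-iso.

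**Figure D3:**
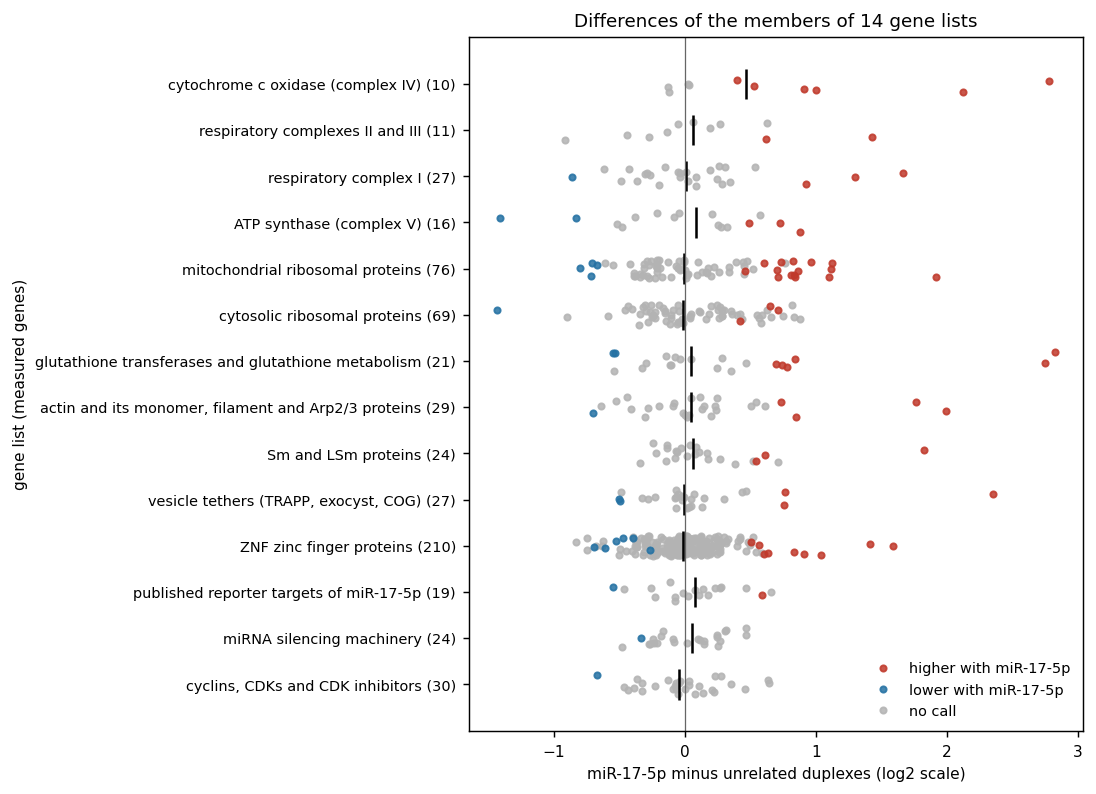
Each point is a measured gene of one of 14 lists, with its number of genes in brackets, placed by miR-17-5p minus the unrelated duplexes on the log2 scale; black bars are medians, and vertical scatter is only for display. Cytochrome c oxidase has a median of 0.47 with 6 of 10 genes higher, and the medians of the other lists lie between -0.04 and 0.08.

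The remaining genes with the largest positive differences came from separate pathways, each with 1 to a few called members of its list. TECR, the reductase that completes each round of very long chain fatty acid elongation, had 12.38, 10.95 and 12.77 with miR-17-5p, against 8.91, 9.24 and 10.20 as the lowest, median and highest comparator values (2.59 ± 0.34, adjusted p = 0.0019). TRAPPC1, a subunit of the TRAPP complex that tethers vesicles at the Golgi, had 12.58, 11.44 and 12.33, against 9.13, 9.89 and 10.10 (2.36 ± 0.24, adjusted p = 0.00072). In both genes replicate 2 was the lowest of the miR-17-5p libraries and still lay above every comparator. PPIH, a cyclophilin of the spliceosome, was tighter, with 11.94, 11.92 and 12.22, against 9.10, 9.58 and 10.39 (2.25 ± 0.18, adjusted p = 0.00029).

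APEX1, the endonuclease that cuts at abasic sites in base excision repair, had 13.43, 12.48 and 13.45 with miR-17-5p, against 10.03, 10.52 and 12.05 as the lowest, median and highest comparator values (2.23 ± 0.22, adjusted p = 0.00065). The highest of these came from miR-182-iso, against which the difference was 1.25, compared with 2.90 against miR-27a and 2.54 against miR-23b. This order was not counted over all genes. Among the 12 genes with the largest positive differences, miR-182-iso was the highest of the 3 comparators in 11 and miR-27a the lowest in 10. TMSB10, which binds actin monomers, was the exception, with 13.81, 13.53 and 14.36, against 11.09, 11.90 and 12.94, the last from miR-27a (1.99 ± 0.22, adjusted p = 0.00099). ACOT7, an acyl-CoA thioesterase, had 12.35, 11.81 and 12.17, against 9.43, 10.26 and 10.56 (1.96 ± 0.16, adjusted p = 0.00029). TUBB4B, a beta tubulin, had 13.09, 11.56 and 12.92, against 9.59, 10.62 and 11.32 (1.93 ± 0.31, adjusted p = 0.0054), and missed the threshold against miR-182-iso alone (1.21, adjusted p = 0.077).

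The lists around these genes had medians near that of all genes. In fatty acid synthesis and elongation, 1 of 17 genes was higher (TECR) and 1 lower, SCD, the desaturase that makes oleate (-0.72), with a median of 0.02. Among vesicle tethers 3 of 27 were higher, TRAPPC1, TRAPPC12 (0.77) and EXOC1 (0.76), and 2 lower, TRAPPC5 (-0.49) and COG7 (-0.50), with a median of -0.01. The COG7 difference came mostly from miR-27a (-1.33), with -0.17 from miR-23b and -0.0009 from miR-182-iso, and TRAPPC12 was at 0.04 against miR-182-iso. Among prolyl isomerases 2 of 20 were higher, PPIH and PPIL1 (0.62), and 1 lower, PPIG (-0.50), with a median of -0.02. In base excision repair APEX1 was the 1 gene of 19 that was called, with a median of -0.04. Of 29 actin-related genes 4 were higher, TMSB10, the myosin light chain MYL12B (1.76), the filament-severing CFL1 (0.85) and the profilin PFN2 (0.73), and 1 lower, ACTR3 (-0.70), a core subunit of the complex that branches filaments, with a median of 0.05. The Sm and LSm proteins, which coat spliceosomal and decay-bound RNAs, had 3 of 24 higher, LSM3 (1.83), SNRPC (0.62) and SNRPF (0.55), none lower and a median of 0.06. A second LSM3 probe was higher by 2.23. Without miR-17-5p replicate 3 the calls of TRAPPC5, TRAPPC12, EXOC1, COG7, PPIL1, CFL1, ACTR3 and SNRPC ended, and without replicate 1 those of COG7, PPIL1, PPIG, CFL1 and SNRPC did. COG7 also lost its call without miR-23b replicate 1, CFL1 and SNRPC without that library or miR-182-iso replicate 1, and PPIL1 and PPIG without miR-17-5p replicate 2 or several of the other libraries, in 14 of 24 and 10 of 23 alternatives.

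Lower differences were smaller, and fewer of them held against each unrelated duplex. RPS20, a protein of the small ribosomal subunit, had 12.39, 12.55 and 12.29 with miR-17-5p, against 13.26 and 13.48 with miR-23b, 13.24, 14.05 and 14.76 with miR-27a, and 14.24 and 14.04 with miR-182-iso. All 3 libraries were below all others (-1.44 ± 0.29, adjusted p = 0.013), but the difference from miR-23b alone was -0.96 with an adjusted p of 0.12, and without miR-17-5p replicate 3 the overall adjusted p was 0.068. HOXB8, a homeobox transcription factor, had 9.70, 10.24 and 10.55, against 10.56, 11.58 and 12.21 as the lowest, median and highest comparator values (-1.24 ± 0.33, adjusted p = 0.042); replicate 3 lay just under the lowest comparator, and the call was lost in 17 of 24 alternative analyses, among them leaving out any one library except miR-27a replicate 2. PAGR1, a subunit of histone methyltransferase complexes, had 10.15, 10.06 and 9.61, against 10.39, 10.79 and 12.21 (-1.20 ± 0.14, adjusted p = 0.0012). Most of that gap came from miR-182-iso (-2.07), with -1.01 from miR-23b and -0.50 from miR-27a, and a second PAGR1 probe was lower by -1.07.

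B4GALT5, which makes lactosylceramide, had 10.20, 10.31 and 10.06 with miR-17-5p, against 10.99, 11.18 and 12.40 as the lowest, median and highest comparator values (-1.19 ± 0.23, adjusted p = 0.011, and 0.060 without miR-17-5p replicate 3). GALNT11, which starts mucin-type O-glycosylation, had 9.52, 9.73 and 10.01, against 10.42, 10.87 and 11.28 (-1.10 ± 0.18, adjusted p = 0.0055), and passed against each duplex. It was the 1 lower gene of the 6 measured GalNAc transferases, none of which was higher (median -0.11). SRF, the serum response transcription factor, had 9.48, 9.86 and 9.46, against 10.06, 10.85 and 11.08 (-1.05 ± 0.16, adjusted p = 0.0043). RAPGEF1, an exchange factor for RAP GTPases, had 8.92, 8.94 and 8.72, against 9.26, 9.94 and 10.67 (-1.05 ± 0.25, adjusted p = 0.028), a call lost in 8 of 24 alternatives: without miR-17-5p replicate 1 or 3, without either library of miR-23b or of miR-182-iso, and with miR-27a or miR-23b dropped from the comparator.

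**Figure D4:**
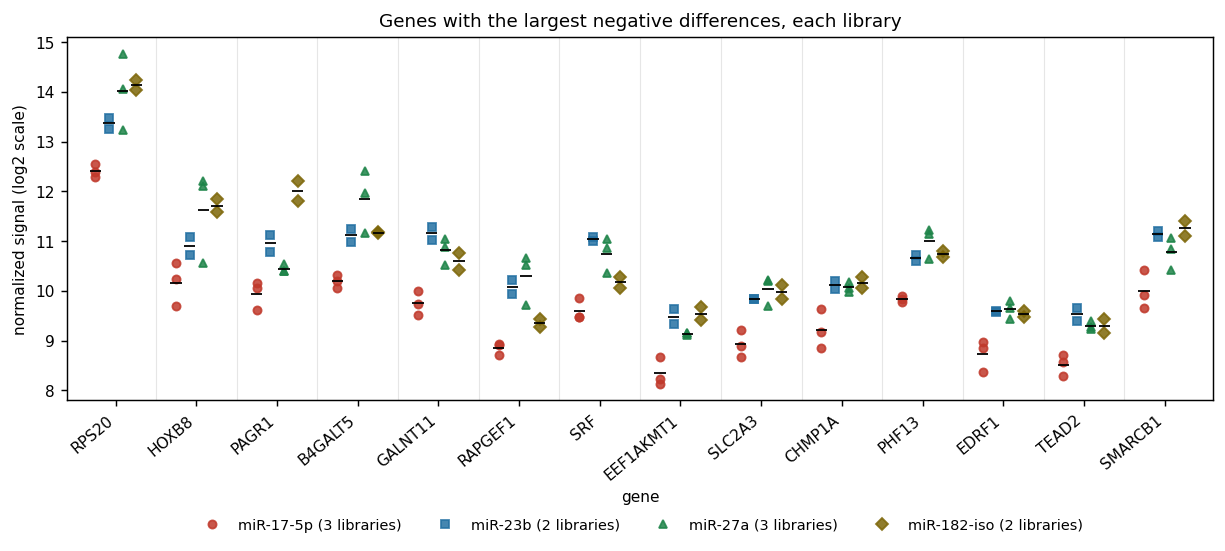
Signal on the log2 scale of 14 genes, the 8 with the largest negative differences among called genes whose libraries do not overlap and those farthest below each of the 3 unrelated duplexes. miR-17-5p libraries (red circles) stand left of the miR-23b, miR-27a and miR-182-iso libraries, and bars are group means. In all genes but SMARCB1 the miR-17-5p points lie below every comparator point.

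Besides GALNT11, 7 genes stood farthest below each of the 3 duplexes, as judged by the smallest of the 3 gaps. SLC2A3, the glucose transporter GLUT3, had 9.21, 8.89 and 8.67 with miR-17-5p, against 9.70, 9.84 and 10.22 as the lowest, median and highest comparator values (-1.03 ± 0.18, adjusted p = 0.0072), and its smallest gap was -0.91, to miR-23b. CHMP1A, of the membrane-cutting ESCRT machinery, had a smallest gap of -0.86 to miR-27a. EEF1AKMT1, a methyltransferase of the elongation factor eEF1A, had 8.23, 8.67 and 8.13, against 9.10, 9.34 and 9.67 (-1.04 ± 0.13, adjusted p = 0.0019). PHF13, a chromatin reader, differed by -0.96, EDRF1, a regulator of erythroid genes, by -0.85, TEAD2, a transcription factor of the Hippo pathway, by -0.86, and SMARCB1, a core subunit of the SWI/SNF remodeler, by -1.06. In SMARCB1, miR-17-5p replicate 2 and the lowest miR-27a library were both at 10.42, and a second probe gave -1.02 with no overlap.

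Cloned inserts show the sites that single genes carried. The 11 genes are those whose luciferase inserts the study's list of cloning oligonucleotides enters under miR-17-5p; its text describes assays of fewer, and at least some had been picked on pull-downs of these miRNAs, so that they are not independent evidence of a direction. Of the 11, 3 were higher, DYNLT1, PRKAG1 and RPP21 (27.3%), none was lower, and the median was 0.22. Stretches of 25 bases of the cloned inserts are printed to show which match each gene carried, as DNA in the sense of the mRNA, 5′ to 3′. In the first set capitals mark GCACTTT, the perfect match to positions 2 to 8.
DYNLT1: tgttttgtgGCACTTTcacaatgta
AKT1: tgggcaaggGCACTTTcggcaaggt
APH1A: ttttcggctGCACTTTcgtcgcgtt
FOXA1: cagtgttatGCACTTTccacagttg
CTDNEP1: gacagcactGCACTTTggagttggg
All 5 inserts held the same 7 letters, and 1 of the 5 mRNAs, DYNLT1 on chromosome 6, was higher with miR-17-5p. The study cloned each insert around a binding site, so a match in it is by design and not a finding. As a scale, 0.31% of 35116 RefSeq promoter stretches of the insert's 56 bases, read on 1 strand, hold GCACTTT. Promoters are not the transcripts that the inserts came from. AKT1 (chromosome 14), the kinase, had 11.26, 11.19 and 12.17, against 10.41, 11.07 and 11.62 as the lowest, median and highest comparator values (0.42 ± 0.27, adjusted p = 0.37). APH1A (chromosome 1), a subunit of gamma-secretase, was at -0.05 ± 0.28, FOXA1 (chromosome 14), a pioneer transcription factor, at -0.26 ± 0.13, and CTDNEP1 (chromosome 17), a phosphatase of the nuclear envelope, at -0.31 ± 0.28; these 3 overlapped the comparators and were not called. An adjusted p above the threshold does not show that these mRNAs were captured alike.

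In the second set capitals mark 11 bases that pair with consecutive central bases of miR-17-5p, starting at position 3, 4 or 5, where G:U pairs and at most 1 internal mismatch were allowed.
PRKAG1: cattactTTGAGGGTGTTctcaagt
RPP21: attctgttcTGTGGGTATTTcaact
RPIA: agtttttATTGTGAGCACacatagt
TSPAN4: cctgctgGCTGTGGGCATctttggg
The PRKAG1 stretch pairs from position 4 with 6 G:U pairs and 1 mismatch, RPP21 from position 3 with 4 G:U pairs and no mismatch, RPIA from position 5 with 2 G:U pairs and no mismatch, and TSPAN4 from position 5 with 4 G:U pairs and no mismatch. A match of this kind, on 1 strand, is in 3.21% of the promoter stretches, and one with no mismatch is in 0.168%. These inserts were likewise cloned around sites, so that their matches are by design. PRKAG1 (chromosome 12), the gamma subunit of the energy sensor AMPK, had 9.76, 9.00 and 9.67 with miR-17-5p, against 7.62, 7.87 and 8.46 as the lowest, median and highest comparator values (1.42 ± 0.17, adjusted p = 0.0015). RPP21 (chromosome 6), a protein of RNase P, had 12.33, 11.51 and 12.15, against 10.32, 10.92 and 11.55 (1.01 ± 0.16, adjusted p = 0.0047), with replicate 2 just under the highest miR-182-iso library. RPIA (chromosome 2), an isomerase of the pentose phosphate pathway, was at 0.22 ± 0.19 and TSPAN4 (chromosome 11), a tetraspanin, at 0.16 ± 0.19, neither of them called. The other inserts with such a match were those of MAPK3 (0.33 ± 0.18), whose miR-23b libraries were higher than its miR-17-5p libraries, and SKP2 (-0.30 ± 0.17). Thus 1 of 5 genes with a seed match and 2 of 6 with a centered match were higher, and the sets were not tested against each other.

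**Figure D5:**
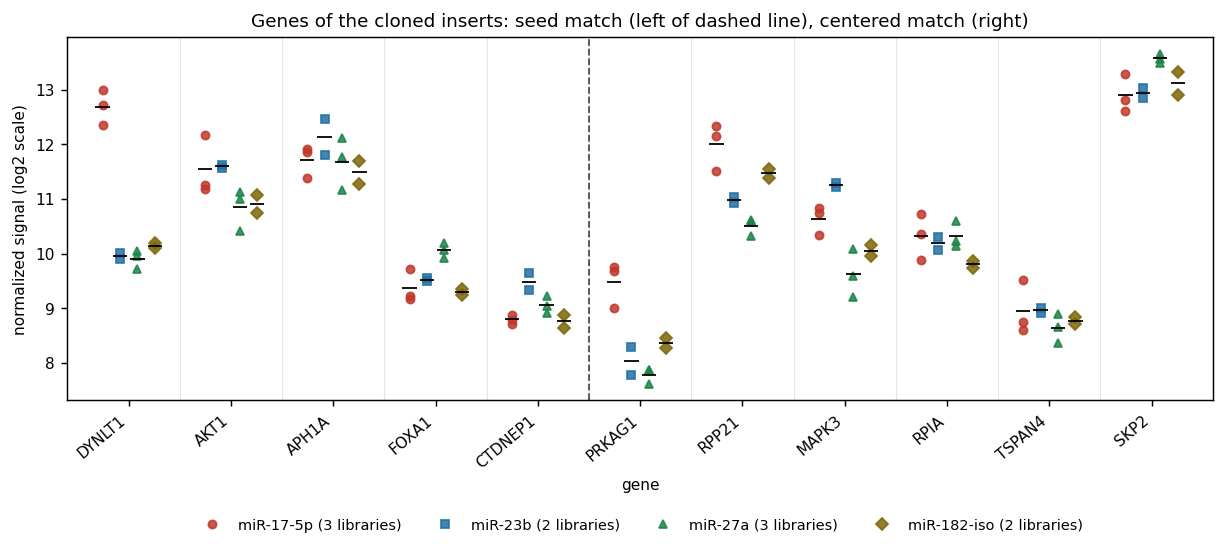
Signal on the log2 scale of the 11 genes with cloned inserts, 5 with a seed match left of the dashed line and 6 with a centered match right of it. For each gene miR-17-5p libraries (red circles) stand left of the miR-23b, miR-27a and miR-182-iso libraries, and bars are group means. DYNLT1 and PRKAG1 are the genes in which every miR-17-5p point is above all comparator points.

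CTDNEP1 crossed with the isomiR. Its insert is the one of the 11 that also holds CACTTTG, the match to positions 2 to 8 of miR-17-5p-iso. In promoter stretches 0.336% hold it, but CACTTTG shares 6 letters with GCACTTT, so that rate is no background for inserts cloned around GCACTTT. The CTDNEP1 signals were 8.88, 8.72 and 8.79 with miR-17-5p, 12.56, 11.22 and 12.82 with miR-17-5p-iso, and 8.64 to 9.64 with the unrelated duplexes. The inserts of DYNLT1, AKT1, APH1A and FOXA1 hold GCACTTT but not CACTTTG. Mean signals with miR-17-5p-iso and with miR-17-5p were 13.55 and 12.69 for DYNLT1 and 12.03 and 11.54 for AKT1. They were 11.67 and 11.72 for APH1A and 9.31 and 9.37 for FOXA1. Whether the CACTTTG match bears on the isomiR signal of CTDNEP1 was not tested.

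Published targets of miR-17-5p from earlier reporter assays were close to the background when set against the unrelated duplexes. The study compiled the list and reported that such targets were enriched over mock-transfected controls. That enrichment was not tested here, because no mock-transfected library is among these samples. Of 23 genes 19 were measured, 1 was higher (5.26%) and 1 lower (5.26%), with a median of 0.08. TGFBR2, the type II receptor of TGFβ, had 8.57, 8.64 and 9.09 with miR-17-5p, against 7.89, 8.22 and 8.52 as the lowest, median and highest comparator values (0.59 ± 0.15, adjusted p = 0.034); it is also on the miR-23b list, and its call was lost in 9 of 23 alternatives, among them leaving out replicate 3 of miR-17-5p, of miR-17-5p-iso or of miR-27a, or any library of miR-23b or miR-182-iso. ZBTB4, a repressor that binds methylated DNA, was lower (-0.55 ± 0.11, adjusted p = 0.014), with -0.79 from miR-23b, -0.75 from miR-27a and -0.11 from miR-182-iso, a call lost without miR-17-5p replicate 1. STAT3 (0.66 ± 0.22, adjusted p = 0.088), the pocket protein RBL2 (0.46 ± 0.19, adjusted p = 0.16) and CCND1, cyclin D1 (-0.47 ± 0.15, adjusted p = 0.089), missed the threshold; all 3 passed without miR-17-5p replicate 2. Some dim targets, E2F1 (-0.12), BCL2L11 (-0.02), HBP1 (0.08) and ZFPM2 (0.02), lay below 8 in every miR-17-5p library, where the scale is compressed and a difference is hard to detect.

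Reporter targets of the unrelated duplexes were counted in the same way. Over all genes 5.81% were higher and 4.9% lower. Of the small miR-27a list 22.2% were lower, and of the miR-23b list 9.52% were higher. Of 9 measured reporter targets of miR-27a, 2 were lower and none higher: FADD, the adaptor of death receptors (-0.66 ± 0.12, adjusted p = 0.0089), and PPARG, the adipogenic nuclear receptor (-0.73 ± 0.20, adjusted p = 0.048, lost in 15 of 24 alternatives, among them leaving out any single library except miR-17-5p replicate 2, miR-27a replicate 2 and replicate 1 of miR-17-5p-iso). Neither passed against miR-27a itself, which was the lowest of the 3 comparators for both: FADD was at -0.24 against miR-27a (adjusted p = 0.27), -0.79 against miR-23b and -0.95 against miR-182-iso, and PPARG at -0.53 (adjusted p = 0.14), -0.95 and -0.69 in the same order. Of 21 measured targets of miR-23b none was lower and 2 were higher, SMAD5, a transducer of BMP signals (0.69 ± 0.14, adjusted p = 0.014, lost without miR-17-5p replicate 3), and TGFBR2. None of the 10 measured targets of miR-182 was called. The medians of the 3 lists were 0.00, 0.00 and -0.09.

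Genes in which the study had seen miR-17-5p capture at unannotated exons were measured in 8 of 10 cases, and since they were chosen on miR-17-5p pull-downs their direction is not independent. NDUFAF3, an assembly factor of complex I, had 13.83, 13.14 and 13.67, against 11.37, 12.07 and 12.52 as the lowest, median and highest comparator values (1.58 ± 0.14, adjusted p = 0.0004). METTL22, a protein methyltransferase, was higher by 0.85 ± 0.12 (adjusted p = 0.0034). UBB, a polyubiquitin gene, had 14.71, 14.70 and 14.72, against 13.74, 13.99 and 14.20 (0.78 ± 0.11, adjusted p = 0.0028), and a second UBB probe gave 1.43 but was not called. All 3 were higher than with each unrelated duplex, and the other 5 genes, from -0.17 to 0.33, were not called. The genes that the study followed by qRT-PCR had been picked because its miR-17-5p pull-down did not enrich them, so a lack of calls is not independent either. None of the 5 measured was called, with a median of 0.14. KPNA2, an importin, scattered most of these, with 11.72, 7.88 and 10.39 with miR-17-5p, against 7.51 to 10.35 (1.29 ± 0.75, adjusted p = 0.33); without replicate 2 its adjusted p was 0.031.

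The silencing machinery and the cell cycle had shares of lower genes, 4.17% and 3.33%, near that of all genes (4.9%). No gene of either list was higher, against 5.81% of all genes, but the lists are small. Of 24 measured genes of miRNA silencing 1 was lower, the decapping factor DCP1A (-0.34, lost in 16 of 24 alternatives, among them leaving out any single library except miR-17-5p replicate 2, miR-27a replicate 3 and replicate 2 or 3 of miR-17-5p-iso), and none higher, with a median of 0.06. Of 30 cyclins, CDKs and their inhibitors 1 was lower, CDK4 (-0.67), the kinase of cyclin D, and none higher, with a median of -0.04.

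Where a gene had several probes, they mostly moved together. The 123 higher genes with more than 1 probe had 153 further probes, of which 142 had the same sign, 52 were themselves called higher and none was called lower. The 91 lower genes with more than 1 probe had 108 further probes, of which 105 had the same sign, 33 were called lower and none higher. TIMM23, the channel of the inner mitochondrial membrane, was higher on its brightest probe (1.24), and its other probes gave 1.46, 1.45 and 1.22, the last not called; a near-identical copy, TIMM23B, can share these probes.

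Called genes differed from all genes in signal and in genomic span. The calls did not use span. The signal is a mean that includes the libraries on which the calls were made, so it is not independent of them. The median signal over all libraries was 9.65 for the higher genes and 9.30 for the lower genes, against 8.78 for all genes. The median genomic span in RefSeq (GRCh38.p14) was 16.8 kb for the higher genes and 25.9 kb for the lower genes, against 28.9 kb for all genes, and 34.3%, 26.5% and 22.2% of them were shorter than 10 kb. The part of either in the calls was not tested.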

How the data were processed

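With lumi 2.2.1, the authors adjusted the background, applied a variance-stabilizing transformation and a robust spline normalization, kept probes detected at p < 0.01 in all mock controls and deposited log2-scale values, which were used as they stand. The version of the array used for each library was not given in the sources used here. A second table with 26 columns, 13 signals and 13 detection p-values, names no sample and was not used. Symbols came from the platform annotation and matched RefSeq by gene ID for 10442 of 10444 probes with 1 symbol; 1562 probes had none and 1 had several.

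One limma 3.58.1 model (R 4.3.3) of 5 groups over 13 libraries gave miR-17-5p minus the mean of the 3 unrelated group means, with two-sided tests, Benjamini-Hochberg adjustment over 12007 probes and calls at 0.05. The probe with the highest mean signal stood for a gene. Precision is limited by the 2 or 3 arrays per group. The fit was tested on simulated data. Named genes are the 12 largest positive and 8 largest negative differences among called genes with no overlap of libraries, the 8 in each direction farthest from all 3 duplexes, genes the study tested for miR-17-5p, the largest called members of each list, and their other probes; further called list members were named after their values were seen. Members and lists were chosen with earlier results of these data known. Python 3.11.15 (pandas 2.3.3, numpy 2.4.6) made the tables and matplotlib 3.10.9 the plots. Alternatives were a replicate block, other comparators, thresholds, filters and normalization, array weights, a trended variance, a one-sided test and leaving out each library.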

Additional observations from a re-analysis of the deposited data

Results flagged for a closer look

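The miR-17-5p-iso libraries were no part of the comparison, yet in 45 of the 160 genes of the naming rules all 3 of them lay above the highest of the 7 unrelated libraries, as they did in 415 of all 8380 genes (4.95%). Of the 45, 38 were called higher with miR-17-5p, 1 lower and 6 not called, and since most named genes were chosen on miR-17-5p signals the counts are a description. The mean isomiR signal was 11.38 for GSTM1 (highest unrelated library 9.55), 13.27 for COX5B (11.62), 11.30 for GSTM2 (9.53), 13.55 for DYNLT1 (10.19), 11.18 for TECR (10.20) and 10.87 for TRAPPC1 (10.10). It was 12.74 for APEX1 (12.05), 13.40 for TMSB10 (12.94), 11.46 for ACOT7 (10.56), 12.15 for TUBB4B (11.32) and 11.27 for MRPL36 (10.49). Among the genes with cloned inserts it was 12.20 for CTDNEP1 (9.64), 11.94 for RPP21 (11.55) and 8.92 for PRKAG1 (8.46). SLC2A3 had 11.18 with the isomiR (10.22), although it was among the genes farthest below the unrelated duplexes with miR-17-5p. Of the mitochondrial and glutathione genes it was 13.67 for UQCRQ (12.85), 9.65 for ATP5MJ (9.52), 12.80 for MRPL51 (11.80), 10.45 for MRPS2 (9.87), 10.28 for MRPL55 (9.99), 11.13 for MRPS30 (10.27), 11.49 for MRPS24 (10.98), 9.89 for MRPL58 (9.33), 9.07 for MRPL49 (8.75), 13.39 for TIMM23 (12.72), 9.96 for MGST1 (9.41) and 9.38 for GLRX (9.10). LSM3 had 13.49 (11.64), MYL12B 10.59 (10.32), RPS29 14.45 (14.30), ATP6V1D 11.76 (10.58), UBB 14.63 (14.20) and METTL22 9.11 (8.36). Zinc finger genes with such a mean were ZNF443 at 9.83 (7.87), ZNF581 at 9.87 (9.46), ZNF618 at 9.34 (8.65), ZNF207 at 10.53 (10.24), ZNF446 at 8.07 (7.75), ZNF18 at 8.12 (7.77) and ZNF77 at 7.88 (7.72). Genes that miR-17-5p did not call were CDKN1A at 10.37 (9.21), HMBOX1 at 10.15 (9.19), STAT3 at 10.14 (9.89), RBL2 at 9.40 (9.25) and ZFPM2 at 7.59 (7.56), beside CTDNEP1. These differences were not tested.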

How the results depend on the processing

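Probes higher and lower with miR-17-5p numbered 641 and 542. They were 417 and 290 with miR-17-5p-iso added to the comparator, 1061 and 1169 without miR-182-iso in it, and 242 and 128 at an adjusted p under 0.01. Leaving out single libraries gave 292 to 871 and 180 to 712. Higher or lower than with each of the 3 duplexes were 156 and 31 probes. These became 13 and 5 with the isomiR as a further comparator, 460 and 322 without miR-182-iso, 44 and 6 at 0.01, and 266 and 63 with array weights. The 31 became 135 without miR-27a, 78 without miR-23b and 19 with a trended robust variance. Leaving out single libraries gave 44 to 280 and 9 to 64. Fewer or more comparators change the count by construction, and other causes were not tested. A replicate block gave 613 and 519 probes, and 147 and 33 in all 3, called 11 in place of 15 mitochondrial ribosomal proteins higher, and left 18 of 129 named calls short of the threshold, among them GLRX, GLRX2, PPIL1, RPL3, PPARG, DCP1A, RAB5B, POLR2F, POLR2G and POLR1B. Whether libraries of the same number share a batch is not given by the labels, and the main fit has no block. Of 23 same-numbered pairs, 13 had deviations correlated above 0.1, over a range of -0.334 to 0.631. Of 13 libraries, 10 correlated best with their own number, so a shared batch cannot be set aside. Of 129 named genes that were called, 127 kept their direction under up to 24 alternatives and 57 stayed past the threshold in each. The other two turned: COX5A to -0.017 with miR-23b dropped from the comparator, and MRPL14 to 0.085 with miR-182-iso dropped. With 2 or 3 arrays per group and a compressed scale for dim probes, differences of dim genes may have been missed.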

Other observations

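Over all genes 5.81% were higher and 4.9% lower. Zinc finger genes named ZNF, the largest family in the table, were near these shares as a whole. Of 210, 9 were higher (4.29%) and 6 lower (2.86%), with a median of -0.01. RAB GTPases had 8.33% higher and 5.56% lower, and the vacuolar ATPase had 12.5% higher and none lower. ZNF581 (1.59) and ZNF443 (1.41) led the higher ones, and ZNF581 was at 10.86 ± 0.17 with miR-17-5p (SD, n = 3), against 9.28 as the mean of the comparators. Of 36 measured RAB GTPases, which direct vesicle traffic, 3 were higher, RAB5B (1.30), RAB7A (0.61) and RAB1B (0.59), and 2 lower, RAB5A (-0.79) and RAB13 (-0.75), so that 2 close paralogs of the early endosome, RAB5B and RAB5A, stood on opposite sides, with a median of 0.05 over the family. The RAB5B call was lost without miR-17-5p replicate 2 or 3, miR-17-5p-iso replicate 3 or any comparator library, the RAB5A call without miR-17-5p replicate 1 or 3 or miR-23b replicate 2, the RAB1B call without miR-17-5p replicate 1 or 3, and the RAB7A call without miR-17-5p replicate 3. With miR-182-iso dropped from the comparator the RAB5A call was lost too, and with miR-27a dropped the RAB5B and RAB1B calls were. Over the alternatives RAB5A ran from -1.35 to -0.12. Of 16 measured subunits of the vacuolar ATPase 2 were higher, ATP6V1D (1.37) and ATP6V0E2 (0.82), and none lower, with a median of 0.05; the ATP6V0E2 call was lost in 11 of 24 alternatives, among them leaving out miR-17-5p replicate 1 or 3, miR-17-5p-iso replicate 3 or any library of miR-23b or miR-182-iso.

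Among mitochondrial import proteins TIMM23 was higher and TIMM21 (-0.95) and TOMM40L (-0.36) lower of 20 measured, with a median of -0.12. Of 27 RNA polymerase subunits 2 were higher, POLR2G (0.87) and POLR2F (0.61), and 3 lower, POLR2C (-0.66), POLR2D (-0.60) and POLR1B (-0.44), with a median of -0.03. Of 30 proteasome subunits PSMD1 (0.99) and PSMD2 (0.31) were higher and PSMB10 (-0.95) lower, with a median of 0.12. Of 22 ubiquitin-conjugating enzymes UBE2K (0.51) was higher and none lower, with a median of -0.07. Each call of this paragraph except TIMM23 was lost without 1 or more single libraries: PSMD1 and UBE2K without miR-17-5p replicate 3, TIMM21 without miR-17-5p replicate 1 or 3, miR-23b replicate 1 or miR-182-iso replicate 1, and the others, in 7 to 14 alternatives each, without either or both of miR-17-5p replicates 1 and 3 and without miR-23b replicate 2, among other libraries.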
